A study of Mus musculus with 12 samples.

Results

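The genes described here encode the protein components of the cytosolic ribosome of the mouse. They were chosen by symbol alone: Rpl or Rps followed by a number and an optional short suffix, the stalk genes Rplp0, Rplp1 and Rplp2, and Rpsa, without the Rps6k kinases and without symbols marked as pseudogenes by "-ps". Of the 22584 genes in the count table, 85 met this rule: 50 of the large subunit, 32 of the small subunit and 3 of the stalk. Fau and Rack1, whose products also carry or bind ribosomal parts, are named differently and were not members.

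The 12 libraries were made from polyadenylated RNA of isolated heart cardiomyocytes of wild-type C57BL6 mice and form 4 groups of 3. Sham saline and sham JV001 animals had a sham operation for 12 weeks and an injection of saline or of JV001. CKD saline and CKD JV001 animals had AngII, a high salt diet and the removal of 1 kidney, a model called CKD in the labels, and the same 2 injections. A duration of 12 weeks is also stated for CKD JV001, and none is stated for CKD saline. What JV001 contains is not given beyond this code name. The series title places the study in gene therapy of telomeres for a cardiorenal syndrome, and no vector-only group was analysed here, so an effect of JV001 cannot be told apart from an effect of its delivery.

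The cytosolic ribosome translates every nuclear messenger RNA of the cell. Its small subunit reads the messenger RNA and its large subunit joins the amino acids, while the stalk proteins recruit the GTPases that drive elongation. Ribosomal protein messenger RNAs carry a 5′ terminal oligopyrimidine tract (TOP), through which growth signalling by mTOR and Larp1 sets their translation and stability. Rpl3l replaces Rpl3 near the peptidyl transferase centre in adult heart and skeletal muscle, and other members, such as Rpl22l1, Rpl36al and Rps27l, are further paralogs of a main copy.

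Promoter windows from 250 bases before to 50 bases after an annotated start were found for 64 of the 85 members in RefSeq's table for GRCm38.p6, in 76 windows on 17 chromosomes. The motif CGGAAG, the core read by ETS-family transcription factors such as GABP, was searched on both strands. It stood in 46 of these 76 windows (60.5%), against 27.4% of the 15116 windows of tested genes and 16.9% of all 32851 windows. A run of at least 8 pyrimidines within 25 bases of the start stood in 46.1% of the members' windows, against 19.4% and 19.7%. TATAAA stood in 10.5% (against 7.81% and 13.6%), CACGTG in 10.5% (against 9.4% and 7.15%) and CAAGATGG in 6.58% (against 2.69% and 2.12%), each on either strand. The following 30-base stretches show the shared CGGAAG core in 6 members of the small subunit and the stalk, in capitals, either as written or as its reverse complement CTTCCG. The first is at chr17:24719924-24719953 (plus strand), the next at chr10:23787302-23787331 (minus), chr7:28350518-28350547 (plus), chr17:33824608-33824637 (minus), chr7:141447531-141447560 (plus) and chr9:120127566-120127595 (plus).
Rps2: tatttatacgtcCTTCCGgctggtgtaggg
Rps12: cgctcctaaaggCGGAAGtggaaactccta
Rps16: ggccagccccatCTTCCGagttctggacgg
Rps28: gacgccatattcCTTCCGctccgaaggacg
Rplp2: ggaaatgtcttcCTTCCGgtgcaccctttt
Rpsa: tcgccccagctaCTTCCGgcctggggtctg
The core began at positions -127, -110, -159, -63, -108 and -188 in that order, counted from 0 at the annotated start.

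Neither of the windows of Rpl3l, the striated-muscle copy, held CGGAAG. The stretch from 70 bases before to 10 bases into its first start (chr17:24727756-24727835, plus strand) is shown for comparison. The first Rpl3l start lay 7763 bases downstream of the Rps2 start on the same strand, so the muscle copy and one of the most abundant housekeeping members are close neighbours. The window of Rpl22l1, a paralog of low level, is shown for its TATAAA in capitals (chr3:28805438-28805517, plus strand) and held no CGGAAG. Lack of this core was not particular to these copies. The first windows of Rps19 and Rps23 also held none, while the paralogs Rps27l and Rpl36al each held 1. A match is a description of the letters and not a measured binding site.
Rpl3l: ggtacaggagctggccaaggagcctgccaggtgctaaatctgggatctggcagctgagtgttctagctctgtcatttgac
Rpl22l1: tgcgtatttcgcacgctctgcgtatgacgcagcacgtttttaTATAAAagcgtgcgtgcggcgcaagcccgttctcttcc

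Libraries held 25.2 to 37.0 in units of 1e6 counts, of which 356362 to 562681 per library fell on the members. Markers of ventricular cardiomyocytes were abundant in every library, with a summed level of 31859 to 126487 CPM (counts per 1e6 counts, with TMM factors) for 12 of 12 markers. CKD saline library 3 and the 3 CKD JV001 libraries stood apart. Their summed fibroblast markers were 2410 CPM and 2824 to 3698 CPM, against 301 to 1264 CPM in the other 8 libraries, and their ventricular sums were 64816 CPM and 31859 to 71604 CPM, against 93221 to 126487 CPM. CKD JV001 library 3 had the lowest ventricular sum of all and a neutrophil sum of 317 CPM, against 81.3 CPM or less elsewhere. Sham saline library 1 differed from the other 2 of its group, with an atrial cardiomyocyte marker sum of 4336 CPM against 395 and 1451 CPM. Nothing in the labels says that replicates came from separate animals, so each p-value measures only the spread between these libraries, which may be technical.

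Ribosomal protein messenger RNAs were among the most abundant of the nuclear genome in every library. On the FPKM scale, which divides by gene length and library total, 65 of 85 members had a mean level above 100 FPKM and 71 were among the 500 genes of highest level. The median of the 83 tested members was 162.6 FPKM, against 2.83 FPKM for all 15004 genes tested. Among the highest mean levels were those of Rpl41, a very short basic peptide of the large subunit (577 FPKM), Rps2 near the messenger RNA entry channel (533 FPKM), the stalk protein Rplp1 (526 FPKM) and Rps14 (489 FPKM). The lowest tested levels were those of Rps27l (10.1 FPKM), Rpl6l (10.7 FPKM), Rpl7l1 (15.1 FPKM), Rpl22l1 (19.3 FPKM) and Rps15a (22.3 FPKM); all of these but Rps15a are paralogs. In the order of levels, neighbours mostly lay closer together than their ranges over the libraries: Rpl41 ran from 452 to 724 FPKM, Rps2 from 422 to 609 FPKM and Rplp1 from 423 to 681 FPKM.

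**Figure D1:**
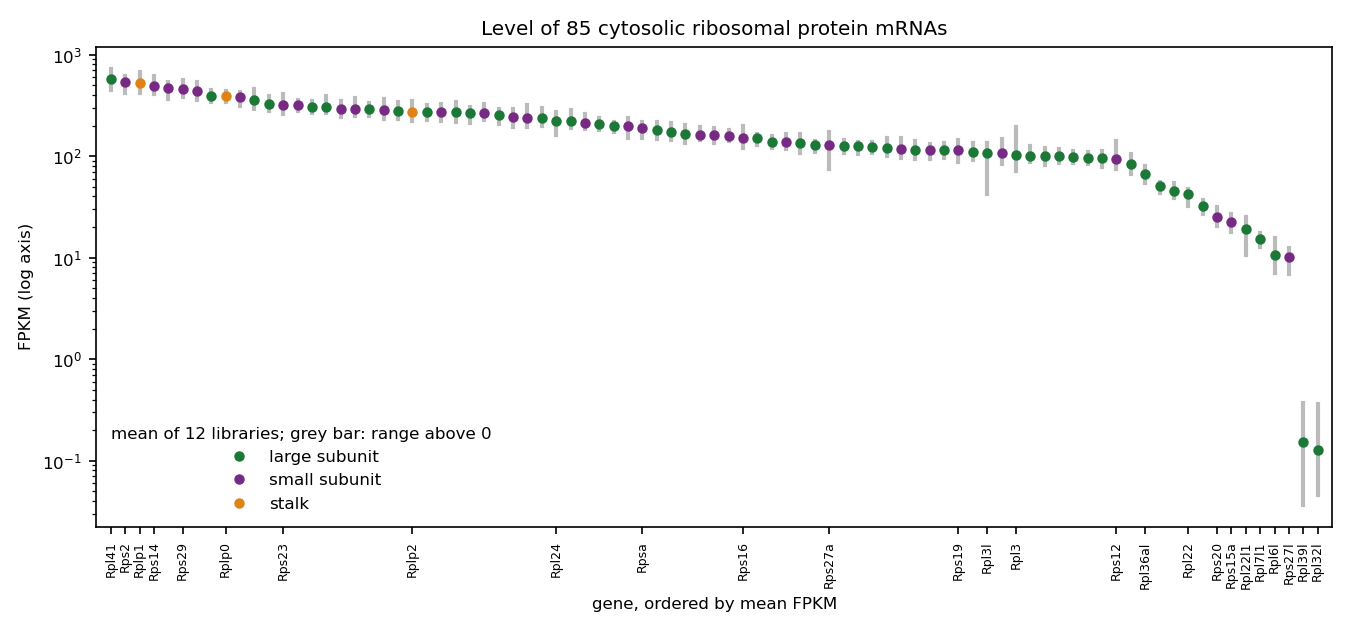
Mean FPKM over 12 libraries (log axis) of the 85 cytosolic ribosomal protein genes, ordered by level and coloured by subunit and labelled for some of the genes named in the text, with a grey bar for the range over libraries above 0. Levels run from 577 FPKM for Rpl41 to 10.1 FPKM for Rps27l among the tested genes, and Rpl39l and Rpl32l stand apart below 1 FPKM.

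The members varied little between replicates. The median SD of log2 CPM within groups was 0.09 for the 83 tested members and 0.40 for all genes tested. For 2747 other genes in the range of log2 CPM that held most members it was 0.27. The median gene length implied by counts and FPKM was 4089 bases for these genes and 821 bases for the members. Their median level was 19.5 FPKM, which divides by that length. They thus shared the members' range of log2 CPM, but were not matched in length, in FPKM or in their place within that range. The SD over all 12 libraries, which includes differences between groups, was greatest for Rpl3l (0.50), Rpl3 (0.40), Rpl22l1 (0.36), Rps27a, which encodes a ubiquitin fusion (0.34), Rpl6l (0.30) and Rps12 (0.29). Messenger RNAs of this family have many processed pseudogenes and near-identical copies, and the counting mode is not given in the sources used here, so reads shared with such copies are uncertain. The 9 ribosomal genes marked "-ps" in the table held at most 0.000581% of the counts of a library.

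Paralogs differed in how far they replaced their main copy. As a share of the summed FPKM of the pair, Rpl3l held 18.0% to 64.4% over the 12 libraries (median 56.7%), Rpl36al held 29.1% to 42.7% of the pair with Rpl36a (median 37.4%), and Rpl22l1 held 18.3% to 39.3% of the pair with Rpl22 (median 32.2%). The remaining tested paralogs were minor: Rpl6l held 5.27% to 11.6% of its pair with Rpl6, Rpl7l1 held 4.53% to 5.51% with Rpl7 and Rps27l held 2.46% to 6.07% with Rps27. Rpl32l and Rpl39l, with 0 to 7 and 0 to 11 reads per library, were below the filter on low counts and were not tested. They reached at most 0.129% and 0.319% of their pairs, and a library with 0 reads allows up to 3 reads.

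The members together held a larger share of the counts in CKD JV001 than in the other groups. Their summed share was 1.20%, 1.37% and 1.35% in sham saline libraries 1 to 3 and 1.22%, 1.38% and 1.43% in sham JV001. In CKD animals it was 1.37%, 1.32% and 1.41% with saline and 1.56%, 1.64% and 1.50% with JV001. The 3 CKD JV001 libraries were thus the highest of the 12, and the other 3 groups overlapped. Messenger RNAs of the mitochondrial genome took 18.8% to 38.5% of the counts. With these and the haemoglobin genes left out of the total, the share was 1.74% ± 0.0870 for sham saline and 1.83% ± 0.108 for sham JV001 (SD, n = 3). For CKD saline it was 2.05% ± 0.216 and for CKD JV001 2.38% ± 0.0375 (SD, n = 3). On that total every CKD saline library (1.91% to 2.30%) lay above every sham saline library (1.68% to 1.84%). The split between subunits hardly moved: small-subunit genes held 41.4% to 42.2% of the members' counts in all 12 libraries.

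**Figure D2:**
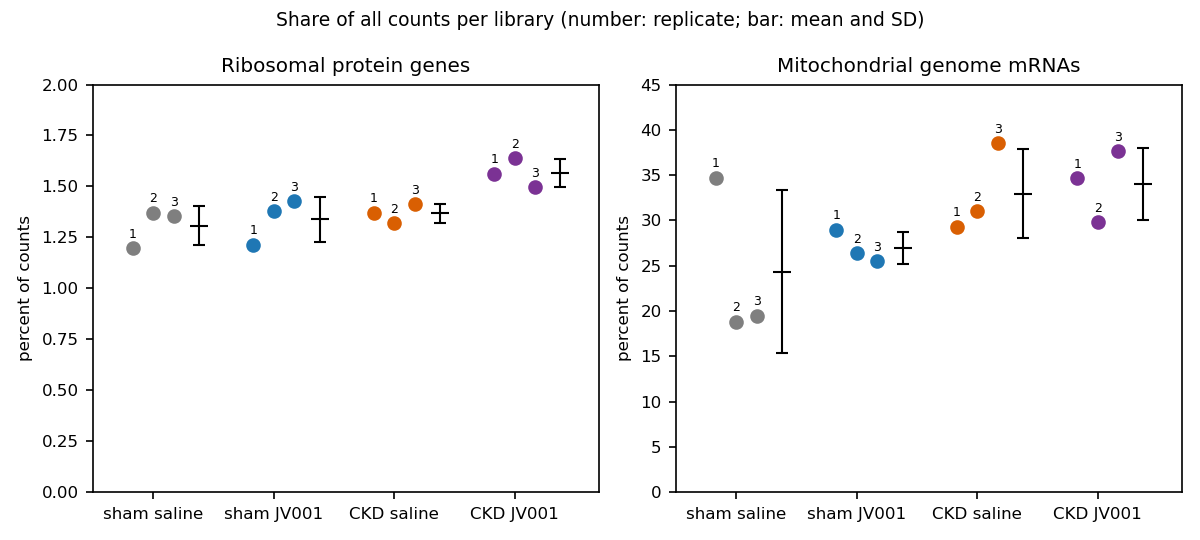
Percent of all counts on the ribosomal protein genes (left) and on messenger RNAs of the mitochondrial genome (right), 1 point per library with its replicate number, and mean with SD of 3 libraries per group. CKD JV001 libraries hold 1.50% to 1.64% on ribosomal protein genes, above the 1.20% to 1.43% of the other 9 libraries, while mitochondrial shares in sham JV001 (25.5% to 29.0%) lie below those of both CKD groups (29.3% to 38.5%) and sham saline overlaps all other groups.

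CKD saline against sham saline compares the CKD model with the sham operation under saline. The members stood slightly higher as a body, and no single one passed edgeR's test. Of 83 tested members, 79 had a log2 fold change above 0, where 51.4% of all genes tested did. The members' median was 0.16 (about the same in the small subunit, 0.17, the large, 0.16, and the stalk, 0.15) and that of all genes 0.01. edgeR called 0 members and 0.0% of all genes tested, with a smallest adjusted p of 0.9406 among the members. At an unadjusted p under 0.05 there were 3 members, all higher, where 2.15% of all genes were higher and 2.81% lower, and DESeq2 also called 0 members (0.282% of the genes it tested). In 45 members all 3 CKD saline libraries lay above all 3 sham saline libraries in CPM (54.2%), against 4.12% of all genes, and in 0 members did they all lie below, against 6.44%. Within each library the members move together, so this count does not hold 45 independent differences.

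The member with the smallest p was Rps29, a zinc-binding protein of the small subunit. It had 159, 167 and 145 CPM in sham saline and 201, 191 and 184 CPM in CKD saline, with no overlap, a log2 fold change of 0.29 (SE 0.13) and an adjusted p of 0.9406. Rps19, mutated in Diamond-Blackfan anaemia, had 87.5, 81.8 and 87.9 CPM in sham saline and 94.9, 100.3 and 123.7 CPM in CKD saline, where library 3 stood highest (0.31, SE 0.14, adjusted p 0.9406). Rps12 had 69.3, 60.5 and 60.7 CPM in sham saline and 68.8, 76.5 and 92.2 CPM in CKD saline, and here the groups overlapped (0.32, SE 0.14, adjusted p 0.9406). The lowest fold changes were small: -0.09 (SE 0.14) for Rpl36al, -0.08 (SE 0.24) for Rps27a and -0.04 (SE 0.12) for Rpl7l1, with adjusted p of 0.975 or above.

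The number of members without overlap in this comparison depended on the scaling. It was 44 (against 5.3% of all genes) when counts were divided by the total without mitochondrial and haemoglobin genes, but 9 (against 2.3%) in FPKM, which divides by the full total. Mitochondrial messenger RNAs took 34.7%, 18.8% and 19.5% of the counts in sham saline and 29.3%, 31.0% and 38.5% in CKD saline. Without CKD saline library 3 all 83 members had a log2 fold change above 0, with a median of 0.21, and edgeR called 0 of them. Without sham saline library 1 the median was 0.15, with 75 above 0. The count of 3 members at an unadjusted p under 0.05 also depended on the settings. It was 10 with RLE factors, 13 with the stricter filter, 18 with DESeq2 and 0 in FPKM. The shares of all genes in either direction were 4.89%, 5.02%, 4.92% and, with a pseudocount of 1, 5.52%. Leaving out 1 library gave 0 (CKD JV001 library 2, sham JV001 library 3 or sham saline library 3), 1 (sham saline library 2), 5 (CKD saline library 3) or 16 (CKD JV001 library 3), with 2 to 4 for the others. The shares of all genes then ran from 3.18% to 9.10%, with 3.61% beside the count of 5 and 7.32% beside that of 16. Leaving out library 3 of both CKD groups gave 32 members, against 7.63% of all genes.

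Sham JV001 against sham saline compares JV001 with saline in sham animals. The members' median log2 fold change was 0.05, against -0.01 for all genes, and 63 of 83 were above 0, where 49.2% of all genes were. This small median rested on single libraries: it was 0.0041 with 45 above 0 without sham JV001 library 3, 0.027 with 55 above 0 without sham saline library 1, and 0.091 with 75 above 0 without sham JV001 library 1. edgeR called 0 members (0.0% of all genes) with a smallest adjusted p of 0.9997, 1 member, higher, had an unadjusted p under 0.05 (1.61% of all genes were higher), and DESeq2 called 0 (0.00894% of the genes it tested). CPM did not overlap in 8 members that were higher (9.64%, against 5.69% of all genes) and 3 that were lower (3.61%, against 6.71%). In FPKM 1 member lay higher without overlap, against 6.2% of all genes, and per total without mitochondrial and haemoglobin genes 11 did, against 6.28%.

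The 1 member with an unadjusted p under 0.05 was Rpl22l1, the paralog of the RNA-binding protein Rpl22. It had 7.97, 5.07 and 7.67 CPM in sham saline and 10.7, 10.6 and 12.1 CPM in sham JV001, so that all 3 JV001 libraries lay above all 3 saline libraries. Its log2 fold change was 0.69 (SE 0.23, adjusted p 0.9997). In CKD it had 11.0, 7.92 and 8.62 CPM with saline and 12.0, 8.20 and 11.3 CPM with JV001, which overlapped. Rpl22, its main copy, had 81.0, 108.4 and 103.7 CPM in sham saline and 107.4, 100.1 and 108.6 CPM in sham JV001.

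Of the other members with the smallest p, Rpl35a had a log2 fold change of 0.19 (SE 0.11) and Rps28 of 0.24 (SE 0.14). On the lower side Rpl36al had -0.17 (SE 0.14), Rpl7l1 -0.12 (SE 0.12) and Rps27a -0.21 (SE 0.24). All 5 had an adjusted p of 0.9997 in edgeR's test. Rps27a spread widely within sham JV001, with 64.8, 75.1 and 129.1 CPM, against 105, 97.4 and 108 CPM in sham saline.

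CKD JV001 against CKD saline compares JV001 with saline within the CKD model, and here the members were divided in direction on the count scale. The median log2 fold change was 0.04, against 0.02 for all genes, with 50 members above 0 and 33 below. Leaving out 1 library moved this median between 0.0034 (CKD saline library 3) and 0.076 (CKD JV001 library 3), with 0.0096 and 0.026 without CKD JV001 libraries 1 and 2. In the small subunit 24 of 32 were above 0, in the large subunit 24 of 48 and in the stalk 2 of 3. edgeR called 0 members (0.0% of all genes), with a smallest adjusted p of 0.2762, and DESeq2 also called 0 (0.277% of the genes it tested). At an unadjusted p under 0.05 there were 2 members higher, Rps12 and Rpl3, where 9.29% of all genes were higher, and 1 lower, Rpl6l, where 8.75% were lower. CPM did not overlap in 16 members that were higher (19.3%, against 8.22% of all genes) and in 1 that was lower, Rpl15 (1.2%, against 6.04%).

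Rps12, a small-subunit protein of the beak, had 94.2, 98.4 and 109.0 CPM in CKD JV001, all above the 68.8, 76.5 and 92.2 CPM of CKD saline. Its log2 fold change was 0.35 (SE 0.14, adjusted p 0.2762). Rps20, a protein of the small-subunit head, had 106.0, 99.7 and 100.5 CPM against 81.3, 82.1 and 91.8 CPM, also without overlap (0.26, SE 0.12, adjusted p 0.2775).
Among the lower members Rpl6l, by its symbol a copy of Rpl6, had 6.49, 9.58 and 9.07 CPM in CKD JV001 against 13.4, 9.14 and 14.9 CPM in CKD saline, with an overlap (-0.57, SE 0.22, adjusted p 0.2762). Rps27l had 28.9, 26.0 and 17.8 CPM against 36.7, 32.2 and 27.1 CPM, and CKD JV001 library 3 was the lowest of the 12 (-0.40, SE 0.20, adjusted p 0.2864).

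Scaling and CKD saline library 3 both bore on this comparison. In FPKM 51 members lay higher without overlap (against 13.2% of all genes), and per total without mitochondrial and haemoglobin genes 32 did (against 9.56%). On the FPKM scale the median over all genes itself moved from 0.02 to 0.10 with a pseudocount of 1 and to 0.13 with one of 0.1; the members' median relative to it was 0.11 and 0.09, against 0.02 in the count fit. With either pseudocount 74 members were above 0 and 9 below, where 60.1% of all genes were above 0 with a pseudocount of 1, and 20 members, all higher, had an unadjusted p under 0.05, against 22.7% of all genes in either direction. Without CKD saline library 3, which carried the high fibroblast sum, edgeR called 2 members, Rpl3 (0.81, adjusted p 0.0363) and Rps12 (0.46, adjusted p 0.0435), beside 21.3% of all genes tested. Without library 3 of both CKD groups it called 3, Rpl3 and Rps12 higher and Rpl3l lower, beside 19.9% of all genes. Libraries 1 and 2 of each CKD group, which remain, were far closer to each other than to library 3. Between them the mean chi-square of counts per gene was 9.18 in CKD saline and 27.0 in CKD JV001. For pairs with library 3 it was 232 to 424. These calls thus rest on a small spread within groups. Sham saline also held a library far from its group: the mean chi-square was 307 and 270 for pairs with library 1, against 32.9 between libraries 2 and 3. With the 2 CKD groups alone and same-numbered libraries taken as pairs, edgeR called Rpl3 (0.57, adjusted p 0.0165) and Rpl3l (-0.70, adjusted p 0.0264), also beside 19.9% of all genes. This pairing was taken from the same data. Without it edgeR called 0 members in these 2 groups alone, with a smallest adjusted p of 0.464. The part of the marker sums of other cell types in these values was not tested.

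CKD JV001 against sham JV001 compares the CKD model with the sham operation under JV001. It shares the CKD JV001 libraries with the comparison above. The members' median log2 fold change was 0.14, against 0.02 for all genes, and 65 of 83 were above 0 (51.1% of all genes). edgeR called 0 members where it called 0.02% of all genes, with a smallest adjusted p of 0.09366. DESeq2 called 9 members, all higher, beside 12.6% of the genes it tested in either direction; among them were Rpl3, Rplp1, Rps12, Rps14, Rps16, Rps18 and Rps23. At an unadjusted p under 0.05 edgeR had 17 members, all higher (20.5%, where 14.8% of all genes were higher and 12.7% lower). Of these, 10 were of the small subunit, 6 of the large and 1 of the stalk. That count was 27 in FPKM, with a median of 0.24 (against 30.2% of all genes in either direction). It was 7 without sham JV001 library 1 (8.43%, against 18.3% of all genes in either direction). Without CKD JV001 libraries 1 and 2 it was 9 and 10 (10.8% and 12.0%, against 28.4% and 26.7%). Without CKD JV001 library 3 it was 22 (26.5%, against 17.5%). CPM did not overlap in 35 members that were higher (42.2%, against 22.9%) and 4 that were lower (4.82%, against 20.1%): Rpl22, Rpl24, Rpl3l and Rps2.

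Here Rps12 had the smallest p, with 66.3, 73.1 and 66.8 CPM in sham JV001 and 94.2, 98.4 and 109.0 CPM in CKD JV001 (0.55, SE 0.14, adjusted p 0.09366). Rps23, which sits at the decoding centre, had 150.6, 158.4 and 166.5 CPM against 212.7, 197.8 and 209.4 CPM (0.38, SE 0.12, adjusted p 0.1082). Neither pair of groups overlapped.
Rps16, also of the small subunit, had 81.0, 82.0 and 89.3 CPM in sham JV001 and 112.7, 110.7 and 112.2 CPM in CKD JV001, and CKD saline was 88.4 and 87.9 CPM in libraries 1 and 2 but 112.1 CPM in library 3. CKD saline library 3 thus lay with the CKD JV001 libraries and not with the other 2 of its group, as it did for the fibroblast markers.
On the lower side Rpl24, whose reduced dose slows protein synthesis in mouse mutants, had 150.6, 151.8 and 181.1 CPM in sham JV001 and 150.2, 143.0 and 102.5 CPM in CKD JV001 (-0.29, SE 0.19, adjusted p 0.3141). Rpl36al had a log2 fold change of -0.16 (SE 0.14, adjusted p 0.4511). Rps2 had 525.7, 532.0 and 549.5 CPM in sham JV001 and 521.4, 503.1 and 392.2 CPM in CKD JV001, of which library 3 was the lowest of all 12.

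CKD saline library 3 is in neither group of this comparison and enters it through the shared filter, scaling and estimate of spread. Without it edgeR called 5 members, among them Rpl3, Rps12, Rps16 and Rps23, beside 10.4% of all genes tested. Without library 3 of both CKD groups, which leaves the close libraries 1 and 2, it called 9 beside 9.38%, among them Rpl3, Rpl37a, Rplp1, Rps12, Rps14, Rps16 and Rps23. All these calls were higher in CKD JV001. Mitochondrial messenger RNAs took 25.5% to 29.0% of the counts in sham JV001 and 29.8% to 37.7% in CKD JV001, with no overlap. The members without overlap numbered 45 in FPKM (against 26.0% of all genes) and 70 per total without mitochondrial and haemoglobin genes (against 33.9%).

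**Figure D3:**
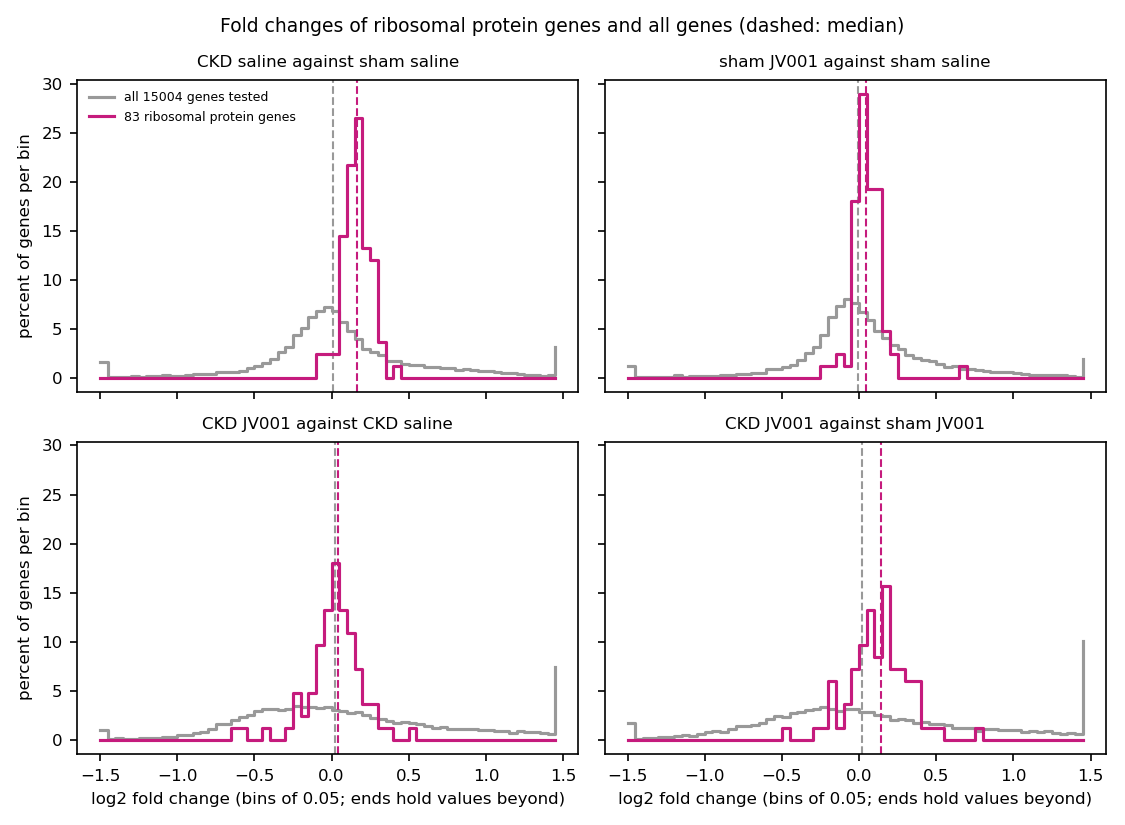
Log2 fold changes fitted by edgeR in 4 comparisons, in bins of 0.05, as percent of the 83 tested ribosomal protein genes and of all 15004 genes tested, with dashed medians. The ribosomal protein genes form a narrow peak whose median is 0.16 in CKD saline against sham saline and 0.04 in CKD JV001 against CKD saline, where all genes have 0.01 and 0.02.

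The interaction asks whether JV001 and saline libraries differed in another way in CKD than in sham animals. edgeR called 0 members (0.0% of all genes), 0 had an unadjusted p under 0.05 (2.09% of all genes were higher and 1.69% lower), and DESeq2 called 0. The median was -0.03, with 36 members above 0 and 47 below, where 49.9% of all genes were above 0. In FPKM the members' median was 0.15, beside 0.11 for all genes with a pseudocount of 1, so the sign of the members' median changed with the scaling. It also changed without single libraries, to 0.0061 without CKD JV001 library 3, 0.014 without sham JV001 library 3 and 0.0069 without sham saline library 1. The smallest p values were those of Rpl6l (-0.56, SE 0.30), Rps27a (0.56, SE 0.35), Rpl22l1 (-0.49, SE 0.32), Rpl3 (0.49, SE 0.31), Rpl24 (-0.38, SE 0.27) and Rplp1 (0.21, SE 0.18), with an adjusted p of 0.8404 each.

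The plot of all members by library shows how widely the small shift was shared. Of the 83 tested members, 4, 25 and 13 lay above their own mean of the 12 libraries in sham saline libraries 1 to 3, and 11, 14 and 52 in sham JV001. In CKD animals 69, 62 and 51 did with saline, and 78, 71 and 46 with JV001. The median deviation per library ran from -0.12 to 0.15 in log2 CPM. Library 3 of CKD JV001 had the fewest members above their mean among the 6 CKD libraries, although it held the extremes for Rpl3 (0.89 above its mean) and Rpl3l (-1.39).

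**Figure D4:**
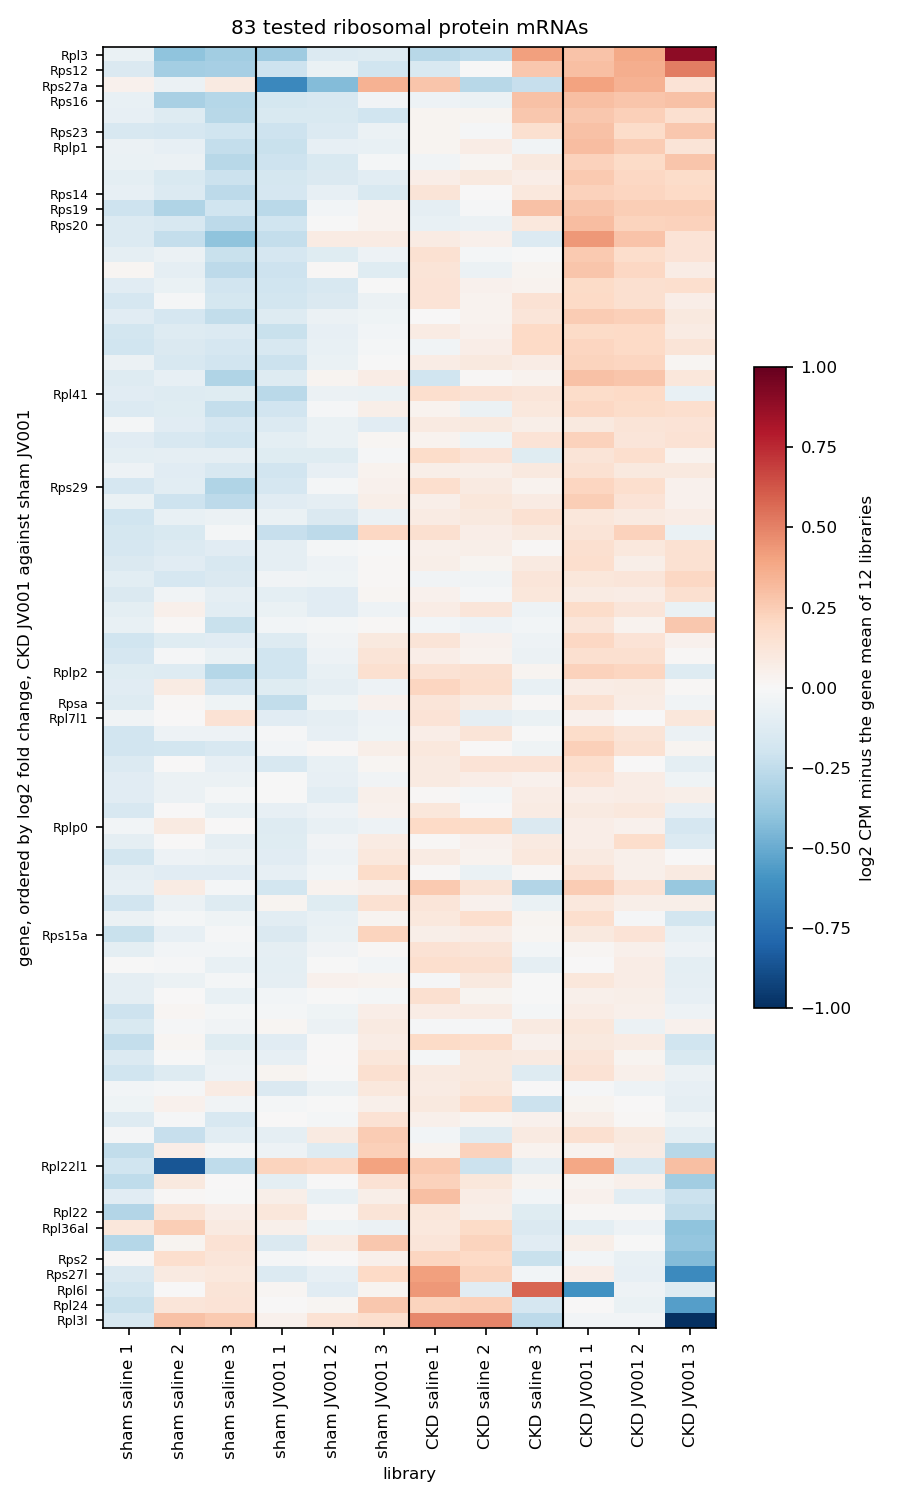
Log2 CPM of each of the 83 tested ribosomal protein genes minus its mean over 12 libraries (colour; the scale ends at 1 in either direction), with genes ordered by log2 fold change of CKD JV001 against sham JV001 and libraries by group. Most genes are blue in 5 of the 6 sham libraries and red in the 6 CKD libraries by a small margin, and 52 of 83 are red in sham JV001 library 3, while Rpl3 at the top and Rpl3l at the bottom differ most in CKD JV001 library 3.

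Rpl3 and Rpl3l, the alternative copies of one large-subunit protein, differed in opposite senses between libraries. Rpl3 had 87.2, 75.1 and 80.0 FPKM in sham saline and 72.0, 91.9 and 89.8 FPKM in sham JV001. The CKD saline values were 74.6, 73.9 and 129.4 FPKM and the CKD JV001 values 121.6, 139.2 and 194.8 FPKM. Library 3 of CKD saline lay with the CKD JV001 libraries, above the other 8 libraries.
Rpl3l had 87.8, 130.1 and 130.3 FPKM in sham saline and 101.6, 119.5 and 118.1 FPKM in sham JV001. The CKD saline values were 135.0, 131.8 and 86.8 FPKM and the CKD JV001 values 104.4, 112.2 and 42.7 FPKM. The lowest values were therefore those of CKD JV001 library 3, CKD saline library 3 and sham saline library 1.
The sum of both copies moved less than either, from 174 to 216 FPKM in the first 3 groups, and was 226, 251 and 238 FPKM in CKD JV001.

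Rpl3l held 50.1%, 63.4% and 61.9% of this sum in sham saline, and 58.5%, 56.5% and 56.8% with JV001. In the CKD model it held 64.4%, 64.1% and 40.2% with saline and 46.2%, 44.6% and 18.0% with JV001. The muscle copy was thus the majority in 8 of the 9 libraries outside CKD JV001 and the minority in all 3 CKD JV001 libraries. The log2 ratio of Rpl3l to Rpl3 in CPM was 0.75 ± 0.43 for sham saline and 0.68 ± 0.06 for sham JV001 (SD, n = 3). For CKD saline it was 0.62 ± 0.82 and for CKD JV001 -0.65 ± 1.11 (SD, n = 3). CKD JV001 lay below sham JV001 by a log2 difference of -1.33, with no overlap and an exact two-sided permutation p of 0.1, the smallest that 3 libraries against 3 allow. Against CKD saline the difference was -1.28 with an exact permutation p of 0.3 and an overlap through CKD saline library 3. The difference for CKD saline against sham saline (-0.13, exact permutation p 1.0) was smaller in size than the SD of either group. That for sham JV001 against sham saline (-0.08, exact permutation p 0.9) was smaller than the SD of sham saline but not than that of sham JV001. These 4 p-values were not adjusted, and none passes 0.05.

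By gene, edgeR's log2 fold change of CKD JV001 against CKD saline was 0.55 for Rpl3 (SE 0.22, adjusted p 0.2762) and -0.63 for Rpl3l (SE 0.33, adjusted p 0.2897). Against sham JV001 the values were 0.75 (SE 0.22, adjusted p 0.1046) and -0.48 (SE 0.32, adjusted p 0.3347). In CKD saline against sham saline they were 0.26 (SE 0.22) and 0.13 (SE 0.32), and in sham JV001 against sham saline 0.06 (SE 0.22) and -0.03 (SE 0.32). The interaction was 0.49 for Rpl3 and -0.61 (SE 0.46, adjusted p 0.8404) for Rpl3l. As given above, the paired fit of the CKD groups called both, at 0.57 and -0.70, but its pairing was taken from these same data. Without the pairing neither was called in these groups alone. Without library 3 of both CKD groups edgeR called both in CKD JV001 against CKD saline, at 0.57 (adjusted p 0.0228) and -0.54 (adjusted p 0.0347), and Rpl3 but not Rpl3l in CKD JV001 against sham JV001, at 0.53 (adjusted p 0.0239) and -0.16 (adjusted p 0.478). These calls rest on libraries 1 and 2 of each CKD group, which were close to each other as given above.
In CKD animals the ventricular marker sum was 114183, 114875 and 64816 CPM with saline and 71604, 71602 and 31859 CPM with JV001, lowest in library 3 of each CKD group, where Rpl3l was lowest and the fibroblast sum highest. Rpl3l is made in striated muscle and Rpl3 in all cells. In these bulk libraries fewer cardiomyocytes and less Rpl3l per cardiomyocyte cannot be told apart.

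**Figure D5:**
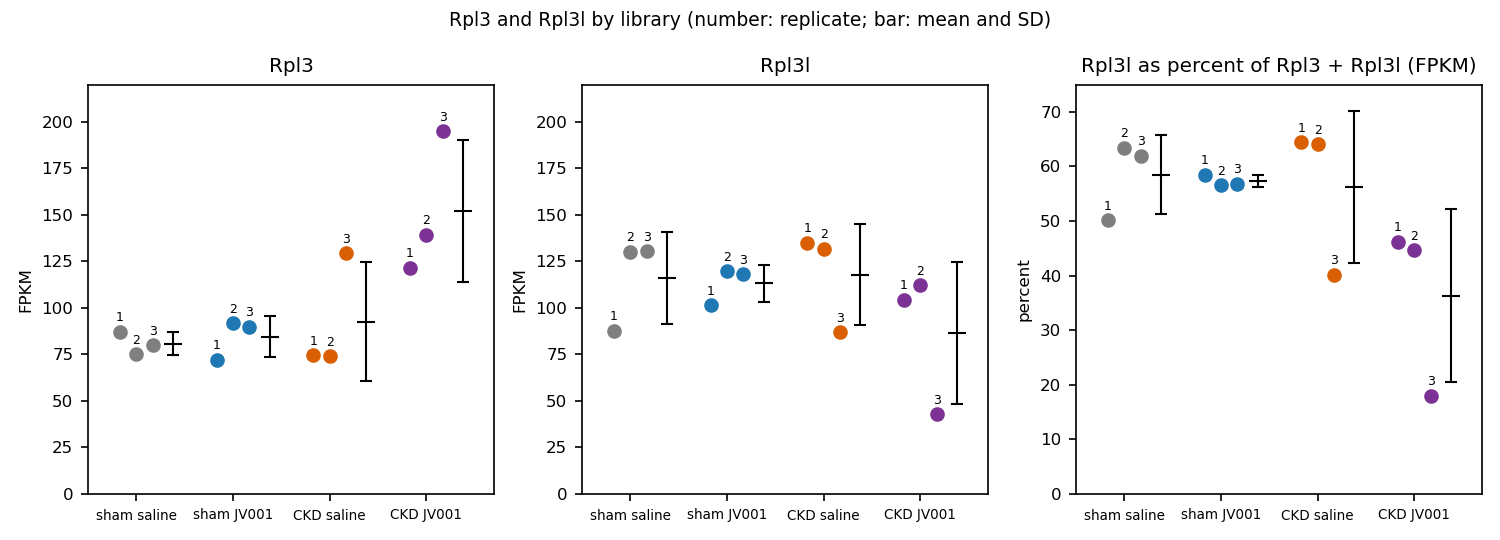
FPKM of Rpl3 (left) and Rpl3l (middle) and Rpl3l as percent of their sum (right), 1 point per library with its replicate number, and mean with SD of 3 libraries per group. Rpl3l holds 18.0% to 46.2% of the sum in CKD JV001 and 40.2% to 64.4% in the other groups, where the lowest value is CKD saline library 3.

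Among the stalk genes, Rplp1 differed most between groups. In sham animals it had 234, 230 and 207 CPM with saline and 209, 230 and 231 CPM with JV001. In the CKD model it had 249, 256 and 238 CPM with saline and 302, 290 and 266 CPM with JV001. Each CKD JV001 library lay above all libraries of the other 3 groups, and each CKD saline library above all sham libraries.
Its partner Rplp2 had 113.4, 113.3 and 101.2 CPM (sham saline), 107.4, 117.7 and 138.2 CPM (sham JV001), 136.5, 138.4 and 125.8 CPM (CKD saline) and 145.3, 143.7 and 112.8 CPM (CKD JV001). Here the 2 JV001 groups overlapped. Rplp0, which anchors both to the large subunit, had 519, 563 and 531 CPM, then 485, 503 and 510 CPM, then 606, 605 and 480 CPM, and 555, 546 and 470 CPM in CKD JV001, with the lowest values in library 3 of both CKD groups. Rpsa, a small-subunit protein also known as the laminin receptor, ran from 297 to 390 CPM over the 12 libraries.

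Among 6 lists of other genes of translation and its control, edgeR called 0 genes in each of the 5 comparisons. In CKD JV001 against CKD saline, 26 of 62 ribosome biogenesis factors were above 0 (median -0.07), 7 of 39 initiation factors (median -0.23), 2 of 10 elongation factors (median -0.26) and 11 of 27 genes of growth signalling (median -0.11), where 51.4% of all genes were. Of 22 other TOP messenger RNAs, 6 were above 0 (median -0.10). Many of these 22 also stand in the lists just given, among them Eef1a1, Eef2, Pabpc1, Eif3e and Npm1, so the lists are not separate. All 77 mitochondrial ribosomal protein genes were below 0, from -0.80 to -0.14 (median -0.48). Of these, 19 had an unadjusted p under 0.05 in edgeR's test, where 8.75% of all genes were lower and 9.29% higher. None passed adjustment (smallest adjusted p 0.2762).

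The genes of smallest p in each list had log2 fold changes from -0.80 to 1.92, at adjusted p of 0.276 or above. Eef1a1, the elongation factor made in most cells, had 1.03 (SE 0.51), and Eef1a2, its muscle and neuron copy, had -0.69 (SE 0.31), a pair that ran in the same opposed sense as Rpl3 and Rpl3l. Pabpc1, which binds poly(A) tails, had 0.74 (SE 0.28), and Vim, a TOP messenger RNA of mesenchymal cells, 1.07 (SE 0.47). Naca, of the nascent polypeptide complex, had -0.56 (SE 0.22). Polr1a, the largest subunit of RNA polymerase I, had -0.60 (SE 0.23) and the box C/D protein Nop56 0.37 (SE 0.17). Mtor had -0.44 (SE 0.18), and Rps6ka3, a kinase that phosphorylates Rps6, had 1.56 (SE 0.59). For Rps6ka3 1 library carried this value: it had 30.9, 32.2 and 187.6 CPM in CKD JV001 against 25.6, 21.6 and 37.7 CPM in CKD saline, and its fold change was 0.16 without CKD JV001 library 3. Without that library Eef1a2 had -0.39 and Pabpc1 0.42, and without CKD saline library 3 Eef1a1 had 1.77 and Vim 1.87. The marker sums of fibroblasts and macrophages were highest in the same CKD JV001 libraries, and their part in these values was not tested.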

How the data were processed

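Polyadenylated RNA of 12 libraries was analysed. The deposited table holds unnormalised whole-number read counts by gene symbol, made by the authors. The deposited FPKM values are the authors' own, per gene length and library total. Per the submitters' processing notes, fastp, HISAT2, HTSeq and the build GRCm39 were used; not given in the sources used here are versions, annotation, counting mode and strand. Columns were assigned to samples by their letters (S for sham, C for CKD, J added for JV001) and replicate numbers.

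Counts were tested with edgeR 4.0.16 (R 4.3.3): TMM factors, filterByExpr (minimum count 10), all 12 libraries in 1 fit of 4 group means, quasi-likelihood F test, Benjamini-Hochberg adjustment over 15004 genes and a threshold of 0.05. Each SE is the size of the log2 fold change divided by the square root of its F. CPM values use TMM factors, and log2 CPM a prior count of 2. The script was tested on simulated counts. The Rpl3l to Rpl3 ratio was compared by an exact permutation test. Promoter windows came from RefSeq (GRCm38.p6), whose coordinates were not mixed with the counts' build. Alternatives were RLE factors, other filters, DESeq2 1.42.0, limma 3.58.1 on log2(FPKM + 1) or log2(FPKM + 0.1), other library totals, only the groups compared, a replicate block, and each library left out. Overlap counts on other scalings and without library 3 of both CKD groups were added after seeing the data.

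The labels do not say what a replicate number shares. Deviations from group means of same-numbered libraries correlated at 0.30, 0.29 and 0.49 between CKD saline and CKD JV001. In an added fit these were treated as pairs from the data alone. Libraries of unlike number correlated as well: 0.27 for CKD saline 1 with CKD JV001 2, and 0.31 for CKD saline 2 with CKD JV001 1. The data therefore do not match libraries 1 and 2 by number, and only library 3 stood apart in both groups. Over all 18 same-numbered pairs of groups the median was -0.09, with 6 over 0.1, and no other comparison had all 3 over 0.1. The fit of the 2 groups alone with a replicate block was added after seeing the data.

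Named genes were the paralogs with their main copies, the stalk genes and Rpsa, the 5 members of highest and of lowest FPKM, up to 3 members per direction and comparison by p, members below the filter, and up to 4 genes of each other list by p in CKD JV001 against CKD saline. Rps16 and members named because they did not overlap or passed an alternative were chosen after their values were seen. Members and lists were chosen with earlier results of these data known. Some members that these rules name are not reported here.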

Additional observations from a re-analysis of the deposited data

How the results depend on the processing

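Depth limits the 2 untested members only; with 3 libraries a group, small changes are hard to call. Without library 3 of both CKD groups, the higher members with no overlap numbered 66 in CKD saline against sham saline (11.4% of all genes), 42 in CKD JV001 against CKD saline (38.2%) and 55 in CKD JV001 against sham JV001 (29.7%). With all libraries they numbered 45 (4.12%), 16 (8.22%) and 35 (22.9%) in that order. Groups of 2 libraries separate more easily than groups of 3, so the rise in these counts is not a measure of a larger difference. Members called were 0 under every alternative run except in 2 comparisons. CKD JV001 against CKD saline gave 2 with the block in the 2 groups alone, where 19.9% of all genes tested were called. It gave 2 without CKD saline library 3 (21.3% of all genes, 0 to 2 members over libraries left out) and 3 without library 3 of both CKD groups (19.9%). CKD JV001 against sham JV001 gave 9 with DESeq2 (12.6% of all genes) and 9 without library 3 of both CKD groups (9.38%). Without CKD saline library 3 it gave 5 (10.4%, 0 to 5 members over libraries left out). The mean share of counts with mitochondrial and haemoglobin genes left out was 1.74%, 1.83%, 2.05% and 2.38% in sham saline, sham JV001, CKD saline and CKD JV001. In FPKM the mean log2 ratio of Rpl3l to Rpl3 was 0.50 for sham saline, 0.42 for sham JV001, 0.37 for CKD saline and -0.91 for CKD JV001. For a ratio of 2 genes FPKM differs from CPM only by their lengths, so every library is shifted by the same amount. Differences between groups were therefore the same on both scales. Of the log2 fold changes named, 13 alternative values changed sign. With libraries left out in turn, CKD saline against sham saline ran from -0.16 to 0.020 for Rpl36al, -0.00283 to 0.36 for Rpl3l, -0.11 to 0.036 for Rpl7l1 and -0.27 to 0.030 for Rps27a, and sham JV001 against sham saline from -0.16 to 0.057 for Rpl3l. Without library 3 of both CKD groups, Rpl36al had 0.021, Rpl7l1 0.010 and Rps27a 0.027 in CKD saline against sham saline. The cause was not tested. With a replicate block over all 12 libraries edgeR called 0 members in all 5 comparisons. With only the 2 groups compared and the block it called 2 in CKD JV001 against CKD saline and 0 in each of the other 3 comparisons of 2 groups.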
